A study of Homo sapiens with 6 samples.

Results

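The COMPASS core is the set of proteins that methylate lysine 4 of histone H3, and its genes are described here by whether their own promoters carried the mark these proteins deposit. The 10 genes were taken by name: the common subunits WDR5, RBBP5, ASH2L and DPY30 and the catalytic subunits KMT2A, KMT2B, KMT2C, KMT2D, SETD1A and SETD1B. Of these 10 genes, 9 are among the 16500 gene names in the deposited tables, and KMT2D is not.

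H3K4me3, the trimethylated form of that lysine, marks active promoters. It was profiled by chromatin immunoprecipitation and sequencing in BE(2)-C, an established human neuroblastoma line that carries an amplified MYCN gene. The cells had received a control siRNA or WDR5 siRNA-1 for 24 hours, and 1 H3K4me3 library stands for each siRNA. The knockdown thus rests on 1 siRNA sequence, and neither group holds a replicate. The series also comprises IgG and input libraries, which were not used here. The deposited files give, for each H3K4me3 library, the genes that had a peak no farther than 1 kb from a transcription start site (TSS). A further pair of tables gives the TSS of promoters classed by whether they bind N-Myc, the transcription factor that MYCN encodes. No file holds a peak height, a read number or a depth, so every value below is a presence or absence, or a position in a list, with no replicate error. No RNA or protein level was available here, and the peak lists do not measure the knockdown of WDR5.

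In COMPASS complexes the 4 common subunits form a module that holds a catalytic subunit in its active shape. WDR5 grips a short arginine-bearing motif of the catalytic subunit, RBBP5 and ASH2L contact its SET domain, and DPY30 binds ASH2L as a dimer. Of the catalytic subunits, SETD1A and SETD1B are the main sources of H3K4me3 at active promoters. KMT2A and KMT2B act at developmental and CpG-rich promoters, and KMT2C and KMT2D mainly add the monomethyl mark at enhancers.

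The bases before the annotated start are shown for 6 promoters that the results below turn on. WDR5 is the siRNA target and KMT2D the core gene without a listed peak. SETD1A and RBBP5 are the core genes with an N-Myc class, KMT2C has the highest GC content of the core windows, and WDR5B is the WDR5 paralog. Sequences are the 150 bases before a RefSeq start on GRCh38.p14, written 5′ to 3′ on the gene's strand. Capitals mark CACGTG, the E-box that MYC-family proteins with MAX are known to bind. It reads the same on both strands.
WDR5 window 4, chr9:134136271-134136420, plus strand: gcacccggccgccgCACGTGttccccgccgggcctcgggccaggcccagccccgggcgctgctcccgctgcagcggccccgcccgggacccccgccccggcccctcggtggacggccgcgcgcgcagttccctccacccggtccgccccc
KMT2D, chr12:49060795-49060944, minus strand: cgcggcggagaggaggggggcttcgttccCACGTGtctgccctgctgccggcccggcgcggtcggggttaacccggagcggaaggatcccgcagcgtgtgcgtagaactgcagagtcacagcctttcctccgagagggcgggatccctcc
SETD1A, chr16:30957604-30957753, plus strand: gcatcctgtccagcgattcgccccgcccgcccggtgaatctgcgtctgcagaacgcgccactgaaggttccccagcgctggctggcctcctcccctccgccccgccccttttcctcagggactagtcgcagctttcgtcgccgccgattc
RBBP5, chr1:205121979-205122128, minus strand: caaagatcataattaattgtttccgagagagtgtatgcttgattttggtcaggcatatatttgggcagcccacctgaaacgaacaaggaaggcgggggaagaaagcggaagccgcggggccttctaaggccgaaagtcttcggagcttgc
KMT2C, chr7:152436004-152436153, minus strand: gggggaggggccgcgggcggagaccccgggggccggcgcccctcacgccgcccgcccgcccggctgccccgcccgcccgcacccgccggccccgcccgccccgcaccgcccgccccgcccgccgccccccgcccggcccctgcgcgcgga
WDR5B, chr3:122416063-122416212, minus strand: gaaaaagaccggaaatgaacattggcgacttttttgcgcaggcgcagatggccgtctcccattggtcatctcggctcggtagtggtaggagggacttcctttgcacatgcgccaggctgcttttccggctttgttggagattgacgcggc

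All 4 common subunits were listed with a peak in both libraries. WDR5, the gene targeted by the siRNA, was on 1 row of the control list and on 1 row of the WDR5 siRNA list. RBBP5, ASH2L and DPY30 were likewise on 1 row of each. Of the 6 catalytic subunits, KMT2A, KMT2B, KMT2C, SETD1A and SETD1B were on 1 row of each list. KMT2D was on no row of either list. In all, 9 core genes had a control peak, 9 were listed in both libraries, 0 were listed with control siRNA only and 0 with WDR5 siRNA only.

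These counts stand beside a background in which most names were listed in both. Of 13618 distinct control names, 11773 (86.5%) were also listed with WDR5 siRNA and 1845 (13.5%) were listed with control siRNA only. Of 11870 WDR5 siRNA names, 97 (0.817%) were listed only there. With 9 genes, a count of 0 control-only names lies close to what the background share would give, and it sets the core genes apart from no other group. A name listed in both libraries has a call in each, and its H3K4me3 level may still differ between them.

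**Figure D1:**
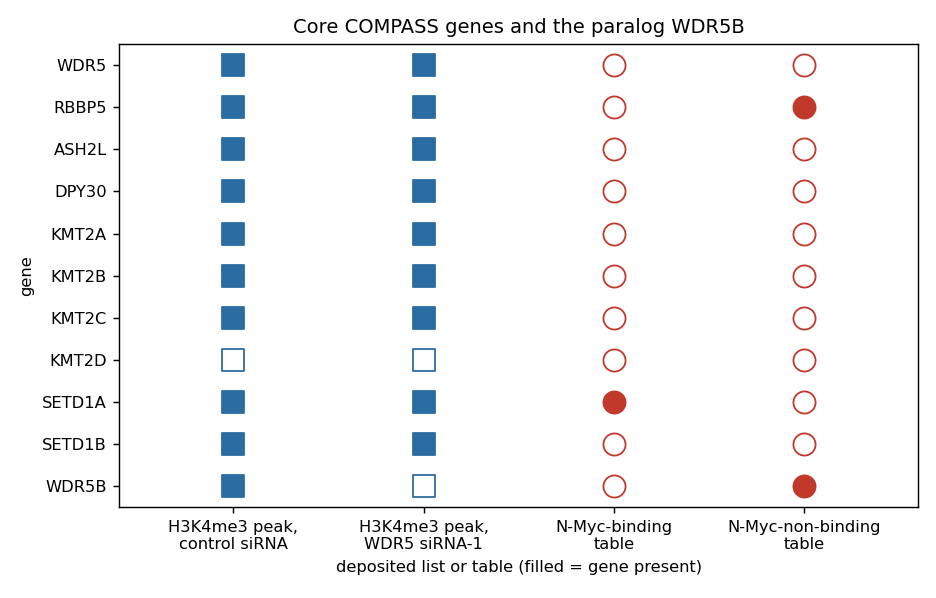
Presence of each core gene and of WDR5B (rows) in the 2 peak lists (squares) and the 2 promoter tables (circles), filled where the gene is present. The 9 core genes with a control peak have both squares filled, KMT2D has none, and WDR5B has only the control square.

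KMT2D was looked for under its older names as well. RefSeq gives the 10 genes 54 distinct older names, and 1 of them is in the files. That name, GAS7, is an older name of KMT2A and also the symbol of another gene, so it was not used. MLL2 and MLL4, which have each been used for both KMT2B and KMT2D, were in no table. A name can be missing because no peak was called or because the authors' annotation used a different name, and these cannot be told apart. The protein-coding genes nearest to KMT2D in the annotation order were listed. RHEBL1, which encodes a Ras-like GTPase and is next to KMT2D on one side, was listed in both libraries. Its promoter (chromosome 12, position 49463775 on hg19) was N-Myc-binding. PRKAG1, which encodes a regulatory subunit of AMP-activated protein kinase and is next to KMT2D on the other side, was listed with control siRNA only. Its promoter (chromosome 12, position 49412629) was N-Myc-non-binding. Farther out, DDN and LMBR1L were listed in both, and DHH, which encodes desert hedgehog, with control siRNA only.

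The promoter tables held 2 of the 10 genes, and these fell in opposite classes. SETD1A was N-Myc-binding, with its TSS at chromosome 16, position 30968615 on hg19. RBBP5 was N-Myc-non-binding, with its TSS at chromosome 1, position 205091150. WDR5, ASH2L, DPY30, KMT2A, KMT2B, KMT2C, KMT2D and SETD1B had no row in either table, so their N-Myc class is not known here. Absence from the tables was common, since 6762 of 13618 control names (49.7%) had a row. Among those 6762 names, 3087 (45.7%) were N-Myc-binding, and of all 9585 promoters 3254 (33.9%) were. The core count of 1 of 2 carries no information against either share.

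The nearest other TSS in the tables lay 32719 bp from SETD1A, at FBXL19, and 37562 bp from RBBP5, at TMEM81. The median over 9584 promoters of both tables was 70523 bp, with quartiles of 29235 and 152202 bp, so both distances were below the median and within the quartiles. FBXL19 was N-Myc-binding and listed in both libraries, while TMEM81 was N-Myc-non-binding and in neither list. A promoter of a gene outside the tables can lie closer.

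The rows of the promoter tables carry an order that the headers do not explain, and the 2 core genes sat in its first part. SETD1A held row 1129 of 3254, at 34.7% of the table length. Of the 2958 promoters in that table listed in both libraries, 38.1% were on earlier rows. RBBP5 held row 2082 of 6331, at 32.9% of the table length. Of the 3019 promoters there listed in both libraries, 68.7% were on earlier rows. SETD1A was thus ahead of the median of its call class (45.6%) and RBBP5 behind the median of its own (23.9%). Both lay between the quartiles of their class, 22.7% to 68.3% for SETD1A and 11.9% to 36.0% for RBBP5. The quartiles of the control-only promoters were 85.9% to 93.0% in the N-Myc-binding table and 46.8% to 55.1% in the other. Row position moved with the call, so these positions are no separate result. The 2 positions come from different tables and cannot be ranked against each other.

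**Figure D2:**
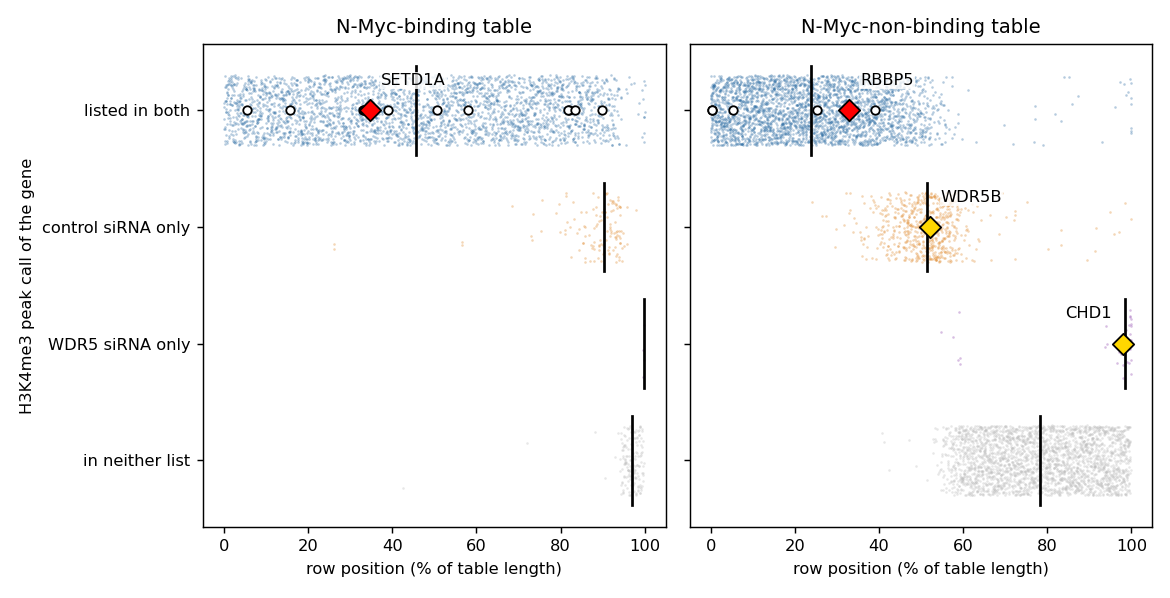
Row position as a percentage of table length (horizontal) for every promoter, split by the peak call of its gene (vertical), with black bars at the class medians. Red diamonds are SETD1A (34.7%) and RBBP5 (32.9%), yellow diamonds WDR5B (52.1%) and CHD1 (97.9%), and open circles the other companion genes.

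The peak lists run in genome order, so the names beside a core gene show the calls at its nearest listed neighbours. Genes without a listed peak, such as TMEM81 near RBBP5, cannot appear among them. Of the 53 distinct names within 3 places of a core gene in the control list, 50 were listed in both libraries and 3 with control siRNA only. Of the 18 distinct names directly beside a core gene there, 16 were listed in both and 2 with control siRNA only. Control-only was the call of 13.5% of all control names. Neither count was tested against that share, and neighbours in the list are not independent. For 6 of the 9 genes the 3 names on each side were the same in both lists. Of the core genes, SETD1A lay in the longest shared stretch, 35 consecutive names that were identical in both lists, with FBXL19 and ORAI3 just before it. The stretches around ASH2L, KMT2C and DPY30 held 21, 20 and 18 names. Those around SETD1B, KMT2B and WDR5 held 15, 13 and 11 names. WDR5 had BRD3, which encodes a bromodomain protein, before it and RXRA, which encodes a retinoid receptor, after it, both listed in both libraries. The median over the 9 core genes was 15 names, and over all names in shared stretches it was 12, with quartiles of 7.00 and 20.0.

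The calls changed next to 3 of the core genes. RBBP5 lay in a stretch of 3 names. CNTN2, which encodes the axonal adhesion protein contactin 2, came just before it and was listed with control siRNA only. NUAK2, which encodes a kinase of the AMP-activated kinase family, was control-only 3 places after it, and LEMD1 was listed there with WDR5 siRNA only. KMT2B directly followed UPK1A-AS1, an antisense transcript listed with control siRNA only. KMT2A lay in a stretch of 5 names, which ended at IFT46, an intraflagellar transport gene listed with WDR5 siRNA only. These neighbours were chosen after their calls were seen.

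Partner subunits that belong to only some of the complexes were listed in both libraries in 12 of 12 cases, beside 86.5% of all control names. The SETD1 partners CXXC1, which recognises unmethylated CpG, WDR82, HCFC1, BOD1 and BOD1L1 were 5 of 5. The KMT2A and KMT2B partners MEN1, which encodes menin, PSIP1, HCFC1 and HCFC2 were 4 of 4. The KMT2C and KMT2D partners KDM6A, an H3K27 demethylase, PAXIP1, PAGR1 and NCOA6 were 4 of 4. HCFC1 is in 2 of these lists, so they hold 12 genes. HCFC1 was N-Myc-binding at row 514 (15.8% of the table) and CXXC1 N-Myc-non-binding at row 2474 (39.1%). The other 10 partners had no promoter row.

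WDR5 also serves the NSL and ATAC acetyltransferase complexes. In these small lists every gene with a control peak was listed in both, beside 86.5% of all control names. The difference was not tested. All 7 NSL genes (KANSL1, KANSL2, KANSL3, KAT8, MCRS1, PHF20 and OGT) were listed in both libraries. Of the 10 ATAC genes, 9 had a control peak and all 9 were listed in both, among them KAT2A, KAT2B, TADA2A, YEATS2 and DR1. KAT14 was in neither list. Its older name CSRP2BP was not used, because RefSeq gives that name to another gene as well. The 5 H3K4 demethylase genes KDM1A, KDM1B, KDM5A, KDM5B and KDM5C, whose proteins remove methyl groups from that lysine of H3, were all listed in both.

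WDR5B, an intron-poor paralog of WDR5, was listed with control siRNA only. Its promoter (chromosome 3, position 122134882 on hg19) was N-Myc-non-binding and held row 3297 of 6331, at 52.1% of the table length. The median of the 656 control-only promoters of that table was 51.5%. The 3 names on each side of WDR5B in the control list (EAF2, CCDC58, FAM162A, KPNA1, DTX3L and PARP9) were all listed in both libraries. Control-only calls made up 17.9% of the N-Myc-non-binding promoters with a control peak and 4.18% of the N-Myc-binding ones. WDR5 itself is on chromosome 9.

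Among other SET-domain genes linked to lysine 4, 6 of 7 had a control peak. Of these, KMT2E, SETD7, SMYD2, SMYD3 and ASH1L (83.3%) were listed in both libraries, near the 86.5% of all control names. ASH1L and SETD7 stood near the top of the N-Myc-non-binding table, at rows 14 and 26. SMYD2 and SMYD3 were N-Myc-binding, at rows 1077 and 1269. PRDM9, which encodes the methyltransferase that places recombination sites in germ cells, was listed with control siRNA only and had no promoter row. SMYD1, a muscle gene, was in neither list.

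Of 12 genes for proteins that bind H3K4me3, 11 had a control peak, and these 11 were all listed in both libraries. They were ING1, ING2, ING4, ING5, BPTF, TAF3, PHF8, SPIN1, PHF2, DIDO1 and PHF23. Of all control names, 86.5% were listed in both, and the difference was not tested. CHD1, which encodes a chromodomain remodeller that binds the mark, was listed with WDR5 siRNA only. Its promoter (chromosome 5, position 98262238 on hg19) was N-Myc-non-binding at row 6199 of 6331, or 97.9% of the table length. The median of the 34 WDR5-siRNA-only promoters of that table was 98.4%.

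**Figure D3:**
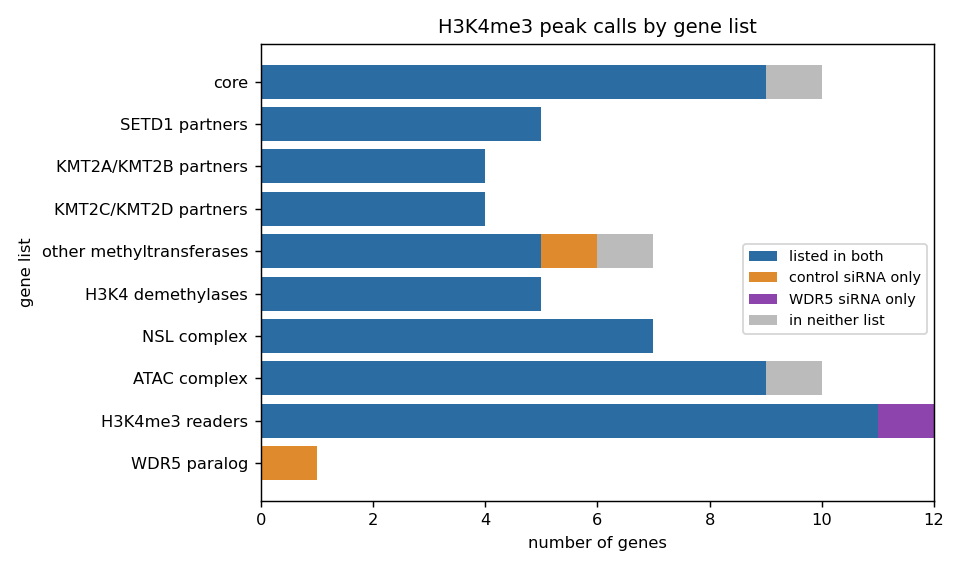
Number of genes (horizontal, from 0) by peak call for the core genes and 9 companion lists (vertical), with HCFC1 counted in 2 lists. Control-only calls appear in the other methyltransferases (PRDM9) and the WDR5 paralog, and the WDR5-siRNA-only call is CHD1 among the readers.

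Over the 54 companion genes, 51 had a control peak. Of these, 49 (96.1%) were listed in both libraries and 2, WDR5B and PRDM9, with control siRNA only, beside the 13.5% of all control names. CHD1 was listed with WDR5 siRNA only, and SMYD1 and KAT14 were in neither list. For KAT14 the older name CSRP2BP was not used, so a peak under that name would be missed. Of the 19 companion genes with a promoter row, 12 were in the N-Myc-binding table and 7 in the other. Of all promoters 33.9% were N-Myc-binding, and of control names with a row 45.7%. The difference was not tested. The 12 N-Myc-binding ones were all listed in both. Among all N-Myc-binding promoters with a control peak, 4.18% were listed with control siRNA only. The 12 spread over the table, from 5.41% (ING5) to 89.9% (OGT), with a median of 44.8%. The 5 N-Myc-non-binding ones listed in both ran from 0.221% (ASH1L) to 39.1% (CXXC1), with a median of 5.20%.

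RefSeq promoter windows were available for 7 of the 10 core genes, WDR5 with 4 and the others with 1 each. ASH2L, DPY30 and SETD1B had no entry. Composition was computed over the 250 bases before each start. The windows are on GRCh38.p14, whereas the calls were made on hg19, and which start the peak lay at is not recorded. The core windows spanned a wide range of GC content with a median of 65.4%. The median was 65.6% over 12945 windows of genes listed in both libraries, 64.4% over control-only genes and 53.6% over protein-coding or table genes in neither list. The core median was thus close to that of genes listed in both. The core quartiles were 61.0% and 82.3%, against 58.0% and 72.4% for genes listed in both. The difference was not tested. The core windows include 4 of WDR5 and that of KMT2D, which has no listed peak.

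Single promoters lay at both ends of the GC range of the core windows. KMT2C had 92.0% GC and 48 CpG pairs, and 1 of the 12945 windows had more GC. KMT2B followed with 84.4% and 40 CpG pairs, and KMT2A with 78.4% and 31. SETD1A (65.2%, 23 CpG pairs) and KMT2D (65.6%, 23 CpG pairs) lay at the middle. KMT2D, without a listed peak, was thus as CpG-rich as SETD1A, with an observed to expected CpG ratio of 0.87 for each. The median ratio was 0.82 for genes listed in both and 0.32 for genes in neither list.

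RBBP5 had a GC content of 46.8%, and 6.91% of the windows of genes listed in both had less. It nevertheless held 12 CpG pairs, a ratio of 0.88. Its printed sequence shows this change along the window, with A and T runs first and GC-rich bases toward the start. The 4 WDR5 windows differed among themselves. Numbered along the chromosome, window 1 had 49.6% GC and 2 CpG pairs, and window 2, which overlaps it, had 61.6% and 9. Window 3 had 60.8% and 23, and window 4 had 83.6% and 39. WDR5B had 56.4% and 16 CpG pairs.

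**Figure D4:**
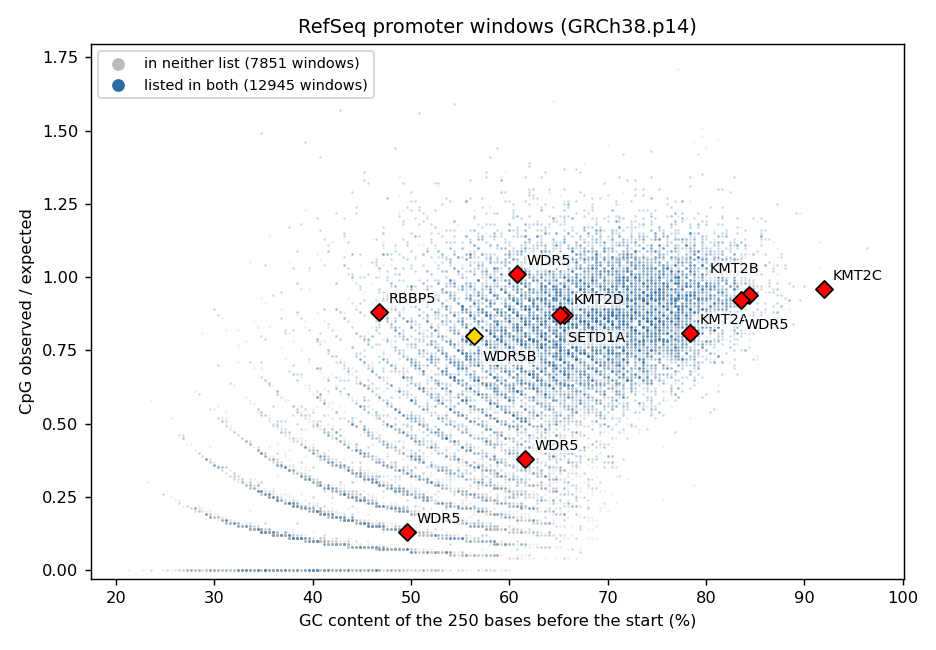
GC content (horizontal, %) against the observed to expected CpG ratio (vertical) of the 250 bases before each RefSeq start, for genes listed in both libraries (blue) and in neither (grey). Red diamonds are the 10 core windows, from RBBP5 at 46.8% to KMT2C at 92.0%, and the yellow diamond is WDR5B.

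CACGTG was found in 2 of the 10 core windows, WDR5 window 4 and that of KMT2D, as the capitals in the printed sequences show. The other WDR5 windows, which are not printed, held no CACGTG. In WDR5 window 4 the motif spans bases 136 to 131 before the start, and in KMT2D bases 121 to 116. The same motif was in 7.43% of all 22685 windows and in 8.77% of the windows of genes listed in both. It was in 12.1% of the windows of N-Myc-binding promoters and 5.26% of those of N-Myc-non-binding ones. Neither WDR5 nor KMT2D had a row in the N-Myc tables. SETD1A, the N-Myc-binding core gene, had no CACGTG in its window, and neither did RBBP5. The looser pattern CANNTG, which includes CACGTG, was in 5 of the 10 core windows and in 58.1% of all windows. No difference between these shares was tested, and a match describes the letters only.

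Genes of the sympathetic lineage were looked up as well. PHOX2A, HAND2, GATA3 and ISL1, regulators of sympathetic neurons, and MYCN were listed in both libraries. TH and DBH, enzymes of catecholamine synthesis, were listed with control siRNA only, the call of 13.5% of all control names. The control list holds 13618 names and no genes of another lineage were looked up. These calls therefore do not check the identity of the line.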

How the data were processed

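Per the submitters' processing notes, BWA 0.7.12 and bedtools were used with build hg19, and no role is stated for either. The sources used here do not give the peak caller, the threshold or the control used for calling. The deposited columns hold gene names and TSS intervals in no measured unit, so depth is unknown and no level, fold or test could be computed. The second coordinate of an interval was taken as the 1-based TSS. Names were reduced to distinct names and compared between libraries and tables by name. An older name was used only where RefSeq gives it to 1 gene. Of 16500 names, 15689 matched a RefSeq symbol or unambiguous synonym (GRCh38.p14), used for names and neighbours only. Promoter windows from RefSeq were searched for CACGTG and CANNTG, and the scripts were tested on simulated data.

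The members and companion lists were chosen with earlier results of these data known. The text names all 10 core genes, companion genes not listed in both libraries and examples of the rest; promoter neighbours were named after their calls were seen. Python 3.11.15, numpy 2.4.6, scipy 1.17.1 and matplotlib 3.10.9 were used.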

Additional observations from a re-analysis of the deposited data

How the results depend on the processing

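The 9 core genes listed in both libraries and the 0 listed with control siRNA only were the same without older names and with names on a single row only. The first count was also 9 with every older name searched, a setting chosen after the data were seen. The control-only share of all control names was 13.5% with rows as deposited, 13.0% over names matched to RefSeq and 11.6% over names with a promoter row. The median row position of the 2 core genes in the tables was 33.8%, against 34.7% for the N-Myc-binding table alone and 46.6% when only rows with a control peak were counted. Median GC content of the core windows was 65.0% with the 50 bases after the start added and 65.6% with 1 value a gene, the latter chosen after the data were seen. CACGTG stayed in 2 windows with the longer window, and CANNTG was in 5. No level was available, so pseudocounts and low-value filters were not run, and leaving out a replicate was not possible with single libraries. A missing name is a missing call at unknown depth.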
